A study of Mus musculus with 3 samples.

Results

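Collagens are the triple-helical proteins that make up most of the extracellular matrix. Their genes were taken from the table of counts as every row whose symbol reads Col, a number, a and a number, which found 44 of the 21983 listed genes. They comprise 11 fibrillar collagens, 8 basement membrane collagens (6 chains of type IV, with Col15a1 and Col18a1) and 25 others. RNA-seq was made from the intestine of wild-type mice in 3 groups, 1 library each, collected after 96 h. Control pups were fed by their dam and given PBS, without hypoxia or cold. The second group modelled necrotizing enterocolitis (NEC), a gut inflammation of newborns. These pups received 40 µl of 33% formula every 4 h and also PBS. Every 12 h they were exposed to hypoxia (99.9% nitrogen, 100 s) and then kept 10 min at 4 °C. In the last group, PCI34051+NEC, pups went through the same model and received PCI34051, an inhibitor selective for the lysine deacetylase HDAC8, at 10 mg/kg per day for 5 days. Feeding, hypoxia and cold differ together between control and NEC and cannot be told apart. The labels give neither strain, age nor sex, and do not state how many pups a library holds.

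Every collagen chain carries glycine at each first position of a repeated Gly-X-Y triplet, and such chains wind into a triple helix. Fibrillar collagens assemble into the banded fibres of the intestinal submucosa and muscle wall, and are made mainly by fibroblasts and smooth muscle cells. Type IV collagen forms the sheet-like network under epithelium and around vessels and muscle cells, together with laminins, nidogens and perlecan. Other collagens join these networks: type VI forms beaded microfilaments, the FACIT group (fibril-associated collagens with interrupted triple helices) decorates fibrils, and a few collagens sit in the cell membrane.

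The classes differ in their coding sequence, as read from GENCODE M21 transcripts (GRCm38). A stretch of 90 bases is shown for 4 chains whose levels set the classes apart: Col3a1 and Col27a1 are fibrillar and far higher in the NEC library, and Col4a1 and Col4a2 are the type IV pair whose levels parted there. Capitals mark the glycine codons (GGN) in the first place of a triplet within a run of 5 or more Gly-X-Y triplets, and glycine codons elsewhere are in lower case. The Col3a1 and Col27a1 stretches begin at the start of the longest run (coding bases 490-579 and 2017-2106), and those of Col4a1 and Col4a2 (coding bases 442-531 and 2878-2967) cross its end.
Col3a1: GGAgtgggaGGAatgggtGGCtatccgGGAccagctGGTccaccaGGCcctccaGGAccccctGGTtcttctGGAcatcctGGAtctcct
Col27a1: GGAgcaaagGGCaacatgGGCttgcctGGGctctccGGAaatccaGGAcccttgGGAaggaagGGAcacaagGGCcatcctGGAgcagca
Col4a1: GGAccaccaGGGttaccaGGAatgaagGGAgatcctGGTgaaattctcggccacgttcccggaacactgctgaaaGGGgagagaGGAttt
Col4a2: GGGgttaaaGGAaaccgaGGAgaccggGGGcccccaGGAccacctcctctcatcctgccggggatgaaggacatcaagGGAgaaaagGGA

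In Col3a1 and Col27a1 all 10 triplets of the stretch begin with a glycine codon, whereas in each type IV stretch 7 capital codons stand on either side of an interruption. Over whole chains, the longest unbroken run in the 11 fibrillar collagens spanned 216 to 344 triplets, with a median of 338. Col3a1 had the longest, 344, and Col27a1 and Col24a1 had 217 and 216. In the 8 basement membrane collagens the longest run spanned 30 to 66 triplets and the helix was split into 11 to 27 runs, and in the 25 others it spanned 23 to 113 triplets.

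Totals over all genes were 15076413 counts in control, 10650638 in NEC and 16497580 in PCI34051+NEC, and mitochondrially encoded genes took 4.88%, 32.4% and 3.73% of them. Levels are CPM, counts scaled to a common library size with TMM factors. A ratio of CPM is given with an exact 95% interval (conditional binomial, Clopper-Pearson) that covers counting error only, as reads copied by PCR are not independent molecules. With 1 library per group there was no replicate check and no test, so every difference compares libraries and not conditions. The column assigned to PCI34051+NEC does not match that sample's description letter for letter and was assigned because no other column names an inhibitor. All 7 epithelial markers had counts in every library and summed to 6264 CPM in control, 2293 in NEC and 6328 in PCI34051+NEC. Of these, 4 were at least 2-fold lower in NEC than in control (Epcam at 2731, 404 and 2797 CPM), 1 was higher (Krt20 at 15.9, 54.8 and 82.8 CPM) and Krt8 and Krt18 were within 2-fold. Markers of smooth muscle summed to 1229, 10566 and 1259 CPM, and 6 of 7 were at least 2-fold higher in NEC than in control (Myh11 at 268, 4215 and 286 CPM). Fibroblast markers summed to 219, 396 and 249.96 CPM, with 4 of 7 measured ones higher (Pdgfra at 53.8, 124 and 48.1 CPM), and endothelial markers to 178, 215 and 207 CPM, with 2 of 7 higher. Over all measured genes the shares past 2-fold were 24.2% higher and 22.9% lower in NEC, so the endothelial count is near that background. In bulk tissue, fewer cells of a type and less RNA per cell cannot be told apart, and the part of these cell types in the collagen values was not tested.

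Collagen transcripts took 0.182% of all counts in the control library (Wilson 95% interval 0.180 to 0.184), 0.594% in NEC (0.590 to 0.599) and 0.146% in PCI34051+NEC (0.144 to 0.148). The NEC library thus held the largest share, also among counts that are not mitochondrial, where the shares were 0.192%, 0.880% and 0.152%. Of the 44 genes, 36 had their highest level in the NEC library, 7 in the control and 1 in PCI34051+NEC. A level of 1 CPM was reached by 34 in the control library, 40 in NEC and 34 in PCI34051+NEC, and 3 (Col4a6, Col10a1 and Col22a1) stayed below 1 CPM in all libraries.

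**Figure D1:**
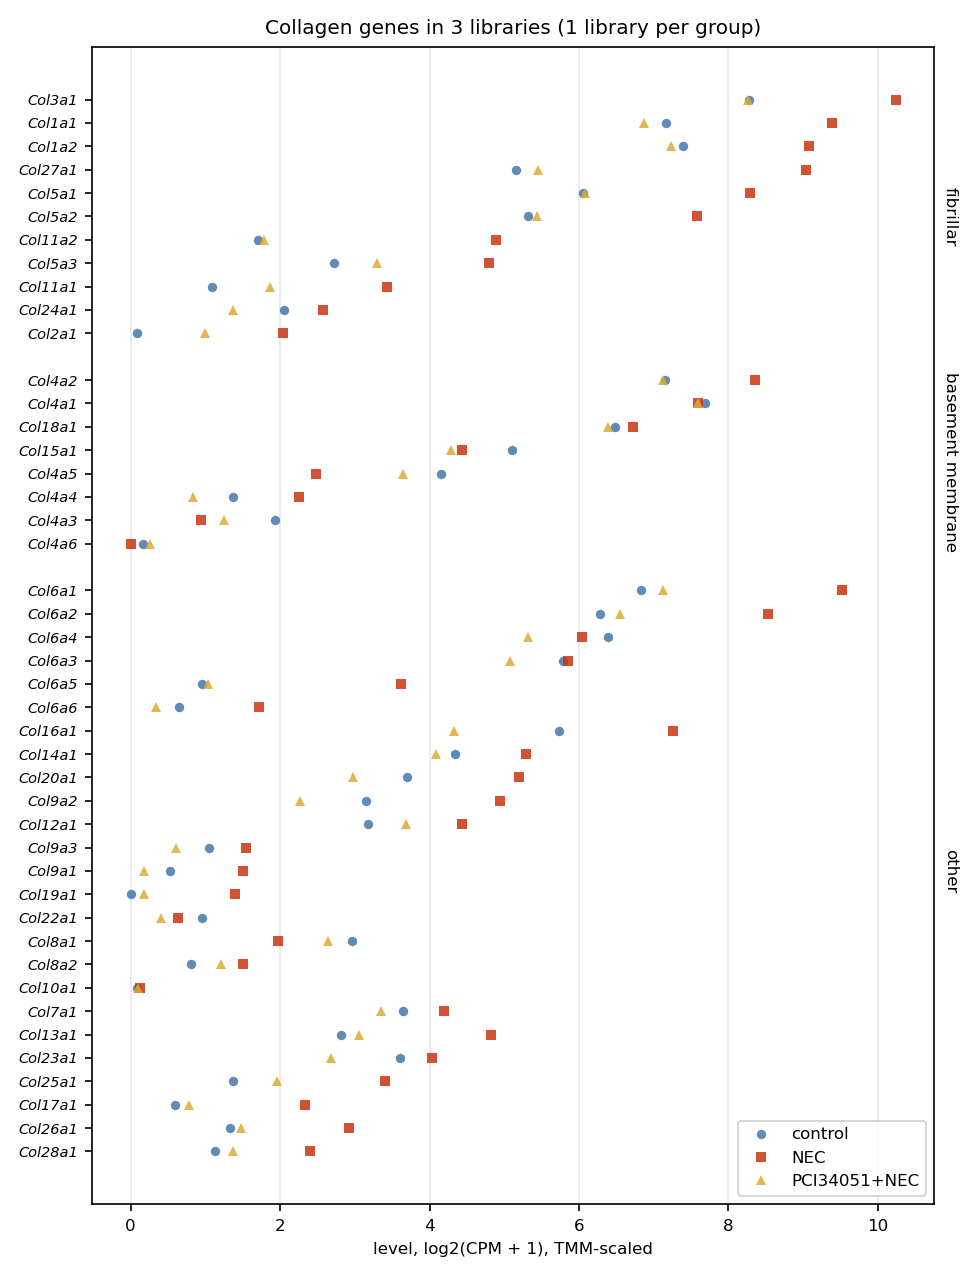
Level of all 44 collagen genes as log2(CPM + 1), with 1 point per library (circles control, squares NEC, triangles PCI34051+NEC), grouped by class. The NEC squares lie to the right for all 11 fibrillar genes (Col3a1 at 1212 against 309 and 307 CPM), while the 3 points of Col4a1 lie close together, between 191 and 204 CPM.

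For NEC against control, a gene was measured at 1 CPM or more in either library, and called higher or lower at a 2-fold difference on the log2(CPM + 1) scale, which understates the difference of low genes. Of 41 measured collagens 25 were higher and 2 lower, while over all 14627 measured genes 47.1% passed in either direction, 24.2% as higher and 22.9% as lower. The median log2 fold of the collagens was 1.40 and that of all genes -0.03. Of the 41, 7 passed the minimum only through the NEC library, and 5 of these (Col2a1, Col6a5, Col6a6, Col17a1 and Col19a1) were among the 25. Among the 34 at 1 CPM or more in the control library 20 were higher and 2 lower. Of the 2 lower, Col4a3 passed the minimum only through the control library. Under a stricter rule, a counting interval that lies wholly beyond 2-fold, 24 collagens were higher and 1 was lower, beside 39.1% of all measured genes in either direction, 20.8% as higher and 18.3% as lower.

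The classes did not share this pattern alike. Of the fibrillar collagens 10 of 11 were higher and none was lower (median log2 fold 2.22). Of the measured basement membrane collagens 1 of 7 was higher and 2 were lower (median -0.10). These are 14.3% and 28.6%, beside 24.2% and 22.9% of all measured genes, so this class count is near that background. Of the 2 lower, Col4a3 passed the minimum only through control. Of the other collagens 14 of 23 were higher and none was lower (median 1.27). The make-up of the collagen counts, which no scaling between libraries alters, differed too: fibrillar chains took 44.5% of collagen counts in control, 60.9% in NEC and 46.7% in PCI34051+NEC. Basement membrane chains took 28.3%, 11.3% and 28.1%, and the others 27.2%, 27.9% and 25.1%.

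**Figure D2:**
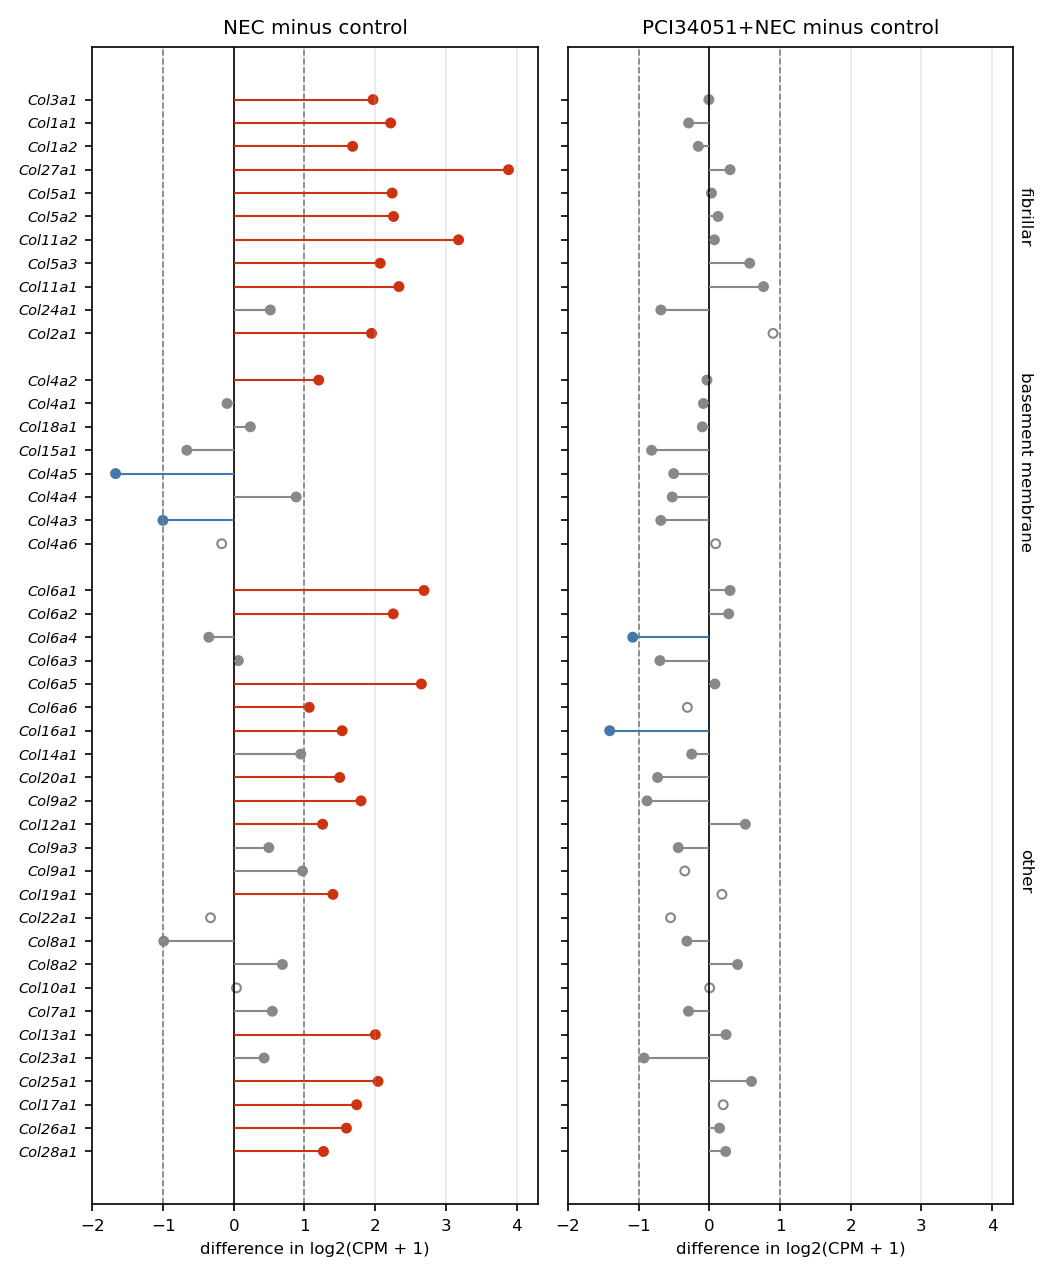
Difference in log2(CPM + 1) for each collagen gene, NEC minus control on the left and PCI34051+NEC minus control on the right, with dashed lines at 2-fold, colour for genes past it and open circles for genes below the minimum level. On the left 10 of 11 fibrillar genes lie past the upper line, and on the right 2 collagen genes (Col6a4 and Col16a1) lie past the lower line and none past the upper.

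Col3a1 (chr1:45311538-45349706, plus strand, mm10), the chain of type III collagen, was at 309 CPM in control, 1212 in NEC and 307 in PCI34051+NEC. It was 3.93-fold higher in NEC than in control (3.80 to 4.06). Type I collagen is built from Col1a1 (chr11:94936224-94953042, plus strand) and Col1a2 (chr6:4504814-4541544, plus strand). Col1a1 was at 142, 666 and 116 CPM, and 4.68-fold higher in NEC (4.46 to 4.91). Col1a2 was at 167, 537 and 149 CPM, and 3.22-fold higher (3.08 to 3.37). For each of these chains the NEC library stood apart and the remaining libraries were within 1.23-fold of each other.

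The chains of type V collagen, which regulates fibril diameter, were likewise highest in NEC. Col5a1 was at 65.4, 313 and 66.8 CPM (4.78-fold higher in NEC, 4.46 to 5.13) and Col5a2 at 38.8, 189 and 42.3 CPM (4.89-fold, 4.46 to 5.36). Col5a3 was lower, at 5.60, 26.8 and 8.80 CPM. Col27a1 (chr4:63214004-63334991, plus strand), a fibrillar collagen best known from cartilage, showed the largest difference of all collagens on the log2(CPM + 1) scale. It was at 34.7, 527 and 42.7 CPM, 15.2-fold higher in NEC (13.9 to 16.6), and its log2 fold of 3.89 lay at percentile 99.6 of all measured genes. Type XI chains, which are also known from cartilage, were low in control and higher in NEC: Col11a2 was at 2.27, 28.6 and 2.43 CPM (12.6-fold, 8.92 to 18.4), and Col11a1 at 1.13, 9.77 and 2.63 CPM (8.63-fold, 5.21 to 15.1).

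Col2a1, the main collagen of cartilage, had 1, 34 and 15 counts, a ratio of 49.4 with a counting interval of 8.28 to 2006. Of 7 cartilage and bone markers, Acan, Matn1 and Ibsp had no count in either the control or the NEC library. Comp (0, 29 and 4 counts), Bglap (0, 22 and 0) and Matn3 (0, 11 and 0) had counts in NEC and none in control, and Hapln1 had 132, 6 and 2 counts. Comp, Bglap and Matn3 reached the minimum of 1 CPM only in NEC, and Hapln1 only in control. The direction of each difference was thus fixed by the minimum, so these markers are not counted as higher or lower. Their part in the Col2a1 value was not tested. Col24a1, at 3.15, 4.93 and 1.58 CPM, was the only fibrillar collagen within 2-fold in NEC against control (log2 fold 0.52).

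The 250 bases before the start site of Col3a1 and Col5a1 are printed because these fibrillar genes, with ratios of 3.93 and 4.78, have start regions of very different base composition (35.2% and 76.4% GC). Both are from RefSeq on GRCm38.p6 and lie on the plus strand, at chr1:45311288-45311537 and chr2:27886175-27886424. Capitals mark matches on either strand to TATAAA (the TATA box), GGGCGG (the GC box) or CCAAT.
Col3a1 promoter: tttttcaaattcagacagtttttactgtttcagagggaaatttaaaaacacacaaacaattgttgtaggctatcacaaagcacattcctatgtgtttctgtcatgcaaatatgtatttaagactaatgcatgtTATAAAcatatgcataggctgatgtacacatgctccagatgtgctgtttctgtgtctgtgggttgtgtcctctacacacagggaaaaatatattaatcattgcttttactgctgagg
Col5a1 promoter: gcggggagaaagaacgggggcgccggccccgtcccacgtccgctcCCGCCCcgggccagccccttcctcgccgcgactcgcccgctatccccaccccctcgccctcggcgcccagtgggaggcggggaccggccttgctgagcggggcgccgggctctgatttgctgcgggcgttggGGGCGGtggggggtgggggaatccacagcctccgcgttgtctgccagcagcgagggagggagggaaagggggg

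The Col3a1 stretch holds 1 TATAAA and no GGGCGG, and the Col5a1 stretch 2 GGGCGG and no TATAAA. Promoter windows of 300 bases were held for 35 of the 44 collagens, in 38 entries. GGGCGG occurred in 60.5% of these and in 35.7% of all 32851 windows, CCAAT in 34.2% and 37.4%, and TATAAA in 13.2% and 13.6%. A match is a description of the letters and not of a bound factor.

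Col4a1 and Col4a2, the chains of the common type IV network, parted from each other in the NEC library. Col4a1 (chr8:11198423-11312826, minus strand) was at 204, 191 and 193 CPM, a ratio of 0.936 in NEC against control (0.885 to 0.989). Col4a2 (chr8:11312805-11449287, plus strand) was at 141, 326 and 138 CPM and thus 2.31-fold higher in NEC (2.19 to 2.44). Without the trend of folds with GC content and transcript length, the log2 fold of Col4a2 was 0.41, which ends its 2-fold call, and that of Col4a1 was -0.68.

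These genes lie head to head and their start sites are 21 bases apart, so that the transcripts overlap by 22 bases. The stretch of that overlap is shown because both genes begin within it, read on the plus strand (RefSeq, GRCm38.p6, chr8:11312805-11312826).
Col4a1/Col4a2 start region: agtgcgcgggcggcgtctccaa

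The promoter windows of both genes share 78 bases around this stretch. No source used here states whether the counting used strand, so reads over the 22 bases could be counted for either gene. Per kilobase of transcript, the ratio of Col4a2 to Col4a1 was 0.709 in control (0.672 to 0.749), 1.75 in NEC (1.66 to 1.85) and 0.735 in PCI34051+NEC (0.694 to 0.777).

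The remaining type IV chains, which form more specialised networks such as that of the kidney glomerulus, were low. Col4a5 (chrX:141475385-141689234) was at 16.7, 4.57 and 11.5 CPM, 3.67-fold lower in NEC than in control (2.70 to 5.06). Col4a3 was at 2.83, 0.913 and 1.38 CPM, at a log2 fold of -1.002, just past the threshold. It passed the minimum only through control. Its head-to-head neighbour Col4a4, whose start site lies 72 bases away, was at 1.57, 3.74 and 0.788 CPM. Col4a6 had 2, 0 and 3 counts and was not measured.

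The multiplexins, basement membrane collagens that carry heparan or chondroitin sulphate chains, were within 2-fold in NEC against control. Col15a1 was at 33.3, 20.6 and 18.5 CPM and Col18a1, the precursor of endostatin, at 88.5, 104 and 82.5 CPM. Without the trend with GC content and length, Col15a1 came past the lower threshold in NEC against control (log2 fold -1.01). Only Col4a2 of the 7 measured basement membrane collagens was called higher in NEC.

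Type VI collagen is assembled from the Col6a1 and Col6a2 chains with Col6a3 or one of its relatives. Col6a1 (chr10:76708792-76726168, minus strand) was at 113, 733 and 138 CPM, 6.51-fold higher in NEC (6.18 to 6.85). Col6a2 (chr10:76595762-76623630, minus strand) was at 76.7, 370.1 and 93.0 CPM, 4.82-fold higher (4.52 to 5.15). Col6a3 (chr1:90765923-90843971, minus strand) was at 54.0, 56.5 and 32.8 CPM, a ratio of 1.05 (0.943 to 1.16). The first and second chain were thus far higher in NEC while the third chain was level.

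Col6a4 was at 83.1, 64.8 and 38.7 CPM, highest in control. Col6a5 was at 0.944, 11.2 and 1.05 CPM (11.9-fold higher in NEC, 6.94 to 21.9), and Col6a6 had its highest level, 2.28 CPM, in NEC. In all, 4 of the 6 type VI genes were higher in NEC and none was lower. Of the 4, Col6a5 and Col6a6 passed the minimum only through NEC.

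Of the 9 FACIT collagens 8 were measured, and 5 were higher in NEC. Col19a1, among the 5, passed the minimum only through NEC. Col16a1 (chr4:130047840-130099283, plus strand) was at 52.1, 153 and 19.0 CPM, 2.93-fold higher in NEC (2.69 to 3.19). Its log2 fold was 0.57 without the trend with GC content and length, below the threshold. Col20a1 was at 12.0, 35.8 and 6.83 CPM, and Col9a2, a chain of type IX collagen, at 7.87, 29.9 and 3.81 CPM. For these 3 genes NEC was highest and PCI34051+NEC lowest.

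Col12a1 and Col14a1 bind the surface of type I fibrils. Col12a1 was at 8.05, 20.6 and 11.9 CPM. Col14a1 was at 19.3, 38.1 and 16.0 CPM, with a log2 fold of 0.95 just inside the threshold. Col19a1 had 0, 18 and 2 counts, at least 8.71-fold higher in NEC against the floor of 3 counts per library. Col9a1, Col9a3 and Col22a1 stayed below 2 CPM in every library.

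Among transmembrane collagens 3 of 4 were higher in NEC. Col17a1, among the 3, passed the minimum only through NEC. Col13a1 was at 6.04, 27.2 and 7.29 CPM (4.51-fold, 3.57 to 5.73), Col25a1 at 1.57, 9.59 and 2.89 CPM, and Col23a1, the exception, at 11.1, 15.3 and 5.39 CPM. Col17a1, the hemidesmosomal collagen of skin, was below 5 CPM in all libraries and highest in NEC, where it was at 4.02 CPM. Keratinocyte markers summed to 2.20, 23.0 and 3.09 CPM beside it, most of it Krt14 (2.01, 21.5 and 2.82 CPM). Krt5 had 3, 3 and 1 counts, Trp63 had 0, 14 and 3, and Dsg3 had none in any library.

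Col7a1, which forms anchoring fibrils below epithelia, was at 11.5, 17.3 and 9.20 CPM. Col8a1, a short-chain collagen of vessel walls, was lowest in NEC, at 6.80, 2.92 and 5.26 CPM, with a log2 fold of -0.99 just inside the threshold. Col26a1 was at 1.51, 6.58 and 1.77 CPM, and Col28a1 at 1.195, 4.29 and 1.58 CPM. Col8a2 and Col10a1 stayed below 2 CPM in every library. Altogether 14 collagens were below 5 CPM in all libraries.

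Levels per kilobase of transcript (the longest coding transcript) order the chains within a library. In control the leading chains were Col3a1 (55.5 CPM per kb), Col1a2 (31.2), Col4a1 (30.9), Col6a1 (27.5), Col1a1 (24.0) and Col4a2 (21.9). In NEC they were Col3a1 (218), Col6a1 (179), Col1a1 (112), Col1a2 (100.5), Col6a2 (93.7) and Col27a1 (69.2). In PCI34051+NEC they were Col3a1 (55.2), Col6a1 (33.7), Col4a1 (29.1), Col1a2 (27.9), Col6a2 (23.5) and Col4a2 (21.4). Col3a1 led in all 3 libraries, and Col4a1 was among the leading 6 in control and PCI34051+NEC but not in NEC.

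Chains that share a molecule were compared per kilobase within each library. The ratio of Col1a1 to Col1a2, which join in the type I molecule, was 0.769 in control (0.727 to 0.814), 1.12 in NEC (1.08 to 1.16) and 0.700 in PCI34051+NEC (0.657 to 0.745). That of Col6a1 to Col6a3 was 5.15 in control (4.74 to 5.59), 32.0 in NEC (29.5 to 34.7) and 10.4 in PCI34051+NEC (9.41 to 11.5). For Col5a1 to Col5a2 the intervals overlapped, at 1.33, 1.30 and 1.24. For Col6a1 to Col6a2 the ratio was 1.42, 1.91 and 1.43, higher in NEC. The NEC library therefore differed from the remaining libraries beyond counting error in 4 of these 5 ratios, counting that of Col4a2 to Col4a1. For Col6a1 to Col6a3 the control and PCI34051+NEC intervals lay apart as well. The ratios keep the trend with GC content and length. Without it, the NEC against control log2 folds of Col1a1 and Col1a2 went from 2.22 and 1.68 to 1.34 and 1.18, and so drew closer. Those of Col6a1 and Col6a2 went from 2.69 and 2.26 to 2.52 and 1.77, and so moved apart.

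**Figure D3:**
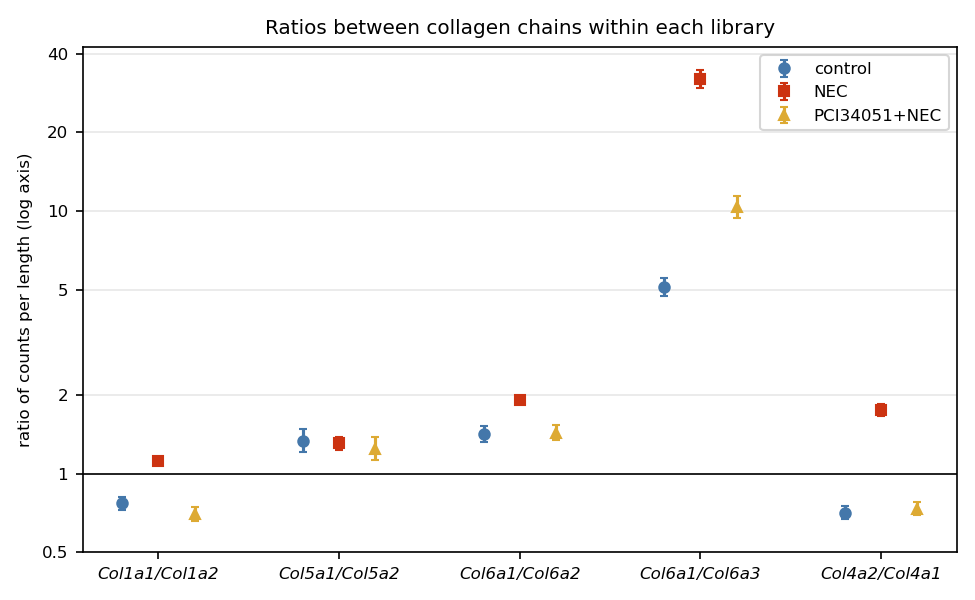
Ratio of per-length levels for pairs of chains of 1 collagen type in each library, on a log axis, with 95% counting intervals as bars. Col4a2/Col4a1 and Col6a1/Col6a3 are highest in NEC (1.75 and 32.0), whereas Col5a1/Col5a2 is at 1.33, 1.30 and 1.24.

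In PCI34051+NEC against NEC both libraries come from the model and the groups differ in the inhibitor. With 1 library each, this comparison cannot say what the inhibitor does. Of 41 measured collagens 29 were lower in PCI34051+NEC and 1 was higher, while over all 14410 measured genes 50.6% passed in either direction, 25.6% as lower and 25.0% as higher. Their median log2 fold was -1.38, against 0.01 over all genes. Of the 41, 7 passed the minimum only through NEC, and 6 of these (Col2a1, Col4a4, Col6a6, Col9a1, Col17a1 and Col19a1) were among the 29. Among the 34 at 1 CPM or more in the PCI34051+NEC library 23 were lower and 1 higher. By the stricter rule 26 were lower and none was higher, beside 42.9% of all measured genes, 22.1% as lower and 20.8% as higher. Both this comparison and the preceding one use the NEC library, so the values are given side by side and no overlap between them is counted.

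All 11 fibrillar collagens were lower in PCI34051+NEC than in NEC (median -1.98). Of the 11, Col2a1 passed the minimum only through NEC. Col27a1 was 12.3-fold lower (11.4 to 13.4), Col1a1 5.74-fold lower (5.45 to 6.05), Col1a2 3.60-fold (3.43 to 3.78) and Col3a1 3.95-fold lower (3.82 to 4.08). Of the basement membrane collagens 2 of 7 were lower, Col4a2 (2.36-fold, 2.24 to 2.50) and Col4a4 (4.75-fold, 2.45 to 9.93). Of the 2, Col4a4 passed the minimum only through NEC. Col4a5 was the 1 collagen called higher in PCI34051+NEC, 2.52-fold (1.83 to 3.52). The basement membrane shares, 28.6% lower and 14.3% higher, are near the 25.6% and 25.0% of all measured genes. Col4a2 was at a log2 fold of -0.65 without the trend with GC content and length, which ends its call.

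Of the other collagens 16 of 23 were lower and none was higher (median -1.36). Of the 16, Col6a6, Col9a1, Col17a1 and Col19a1 passed the minimum only through NEC. Col16a1 was 8.04-fold lower (7.09 to 9.14), Col9a2 7.84-fold lower (5.91 to 10.6), Col6a1 5.30-fold lower (5.05 to 5.57) and Col6a2 3.98-fold lower (3.75 to 4.23). Col6a3 was 1.72-fold lower (1.53 to 1.94), inside the threshold. All 4 transmembrane collagens were lower, with Col17a1 among those that passed only through NEC.

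PCI34051+NEC against control showed few collagens apart. Of 36 measured collagens none was higher and 2 were lower, beside 13.1% of all 13652 measured genes in either direction, 6.55% as lower and 6.55% as higher. The median log2 fold was -0.09 for collagens and 0.00 for all genes. By the stricter rule 1 collagen (Col16a1) was lower, beside 9.88% of all measured genes, 4.77% as lower and 5.11% as higher. The 2 collagens past 2-fold were Col16a1, 2.74-fold lower in PCI34051+NEC (2.40 to 3.15), and Col6a4, 2.15-fold lower (1.95 to 2.37). Col23a1 and Col9a2 had log2 folds of -0.93 and -0.88, just inside the threshold. Fibrillar collagens had a median of 0.05 over 10 measured genes, with Col3a1 at a ratio of 0.995 (0.956 to 1.04), Col5a1 at 1.02 (0.936 to 1.11) and Col27a1 at 1.23 (1.10 to 1.38). All 7 measured basement membrane collagens had a log2 fold below 0 (median -0.51), none past the threshold, with Col15a1 the lowest at -0.82.

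Folds moved with GC content in these libraries. The median GC content of the longest coding transcript was 56.7% for the measured collagens and 50.7% for all genes. Across the 41 collagens GC content and the NEC against control log2 fold had a Pearson correlation of 0.32 and a Spearman correlation of 0.25, and across 14595 genes the Spearman correlation was 0.18. These points are genes of the same libraries and not independent replicates. With the trend for GC content and transcript length removed, the median of all collagens in NEC against control was 0.96, that of fibrillar collagens 1.66, that of basement membrane collagens -0.68 and that of the others 0.95. In PCI34051+NEC against NEC these medians were -1.22, -1.71, 0.29 and -1.22. The part of GC content in single collagen values was not tested beyond this.

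**Figure D4:**
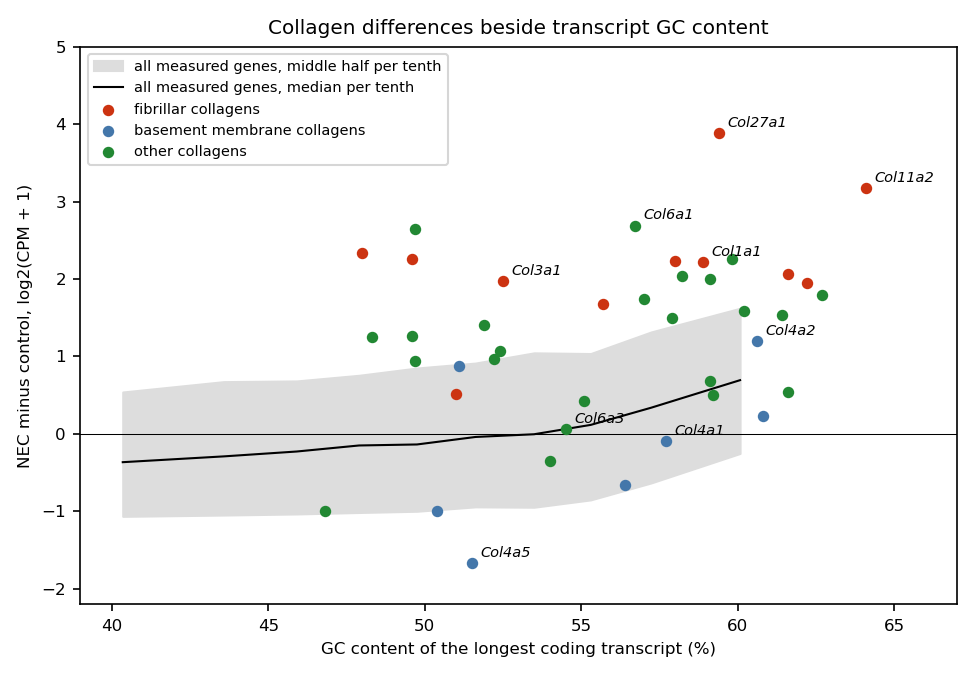
Log2 fold in NEC against control for each measured collagen by the GC content of its longest coding transcript in percent, with the median and the quartiles of all measured genes in equal bins of GC content as a line and a grey band. Col27a1 lies highest at 3.89 and Col4a5 lowest at -1.67.

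The genes around the collagens were described by role, beginning inside the cell. Their counts stand beside 24.2% of all measured genes higher and 22.9% lower in NEC against control, and 25.0% higher and 25.6% lower in PCI34051+NEC against NEC. Of 19 measured biosynthesis enzymes and chaperones 9 were higher in NEC than in control and 5 lower (median 0.79). Without the trend with GC content and length the median was 0.59. The calls of P3h1 (log2 fold 0.98), P3h4 (0.39), Creb3l1 (0.64) and Sec23a (-0.68) then ended. Prolyl and lysyl hydroxylases modify the nascent chain: P3h2 was at 2.39, 23.4 and 2.82 CPM, P3h3 at 14.4, 106 and 7.49 CPM, and Plod2 at 8.49, 46.2 and 5.19 CPM. P4ha2, a prolyl 4-hydroxylase subunit, was 5.95-fold higher in NEC (4.19 to 8.63).

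Plod1, Colgalt1, P4hb, Ppib and Sec23a were the 5 members lower in NEC. Plod1, a lysyl hydroxylase, was at 160.2, 24.8 and 72.9 CPM (6.45-fold lower in NEC, 5.69 to 7.33). Colgalt1, which adds galactose to hydroxylysine, was at 161, 18.6 and 137 CPM (8.65-fold lower, 7.50 to 10.0). Serpinh1, the collagen chaperone HSP47, is named although it was chosen after its values were seen, and was at 90.1, 213 and 35.4 CPM (2.37-fold higher, 2.21 to 2.53). Against NEC, PCI34051+NEC had 5 members higher and 9 lower.

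Outside the cell, procollagen is trimmed and cross-linked, and none of these 15 measured genes was lower in NEC while 10 were higher (median 1.83). Of the 10, Tll1 and Tll2 passed the minimum only through NEC. Lox, Loxl1 and Loxl3 are oxidases that start cross-links. Loxl1 was at 10.1, 83.8 and 8.87 CPM (8.33-fold higher, 7.03 to 9.91), Lox at 6.17, 49.8 and 11.2 CPM, and Loxl3 at 2.52, 27.2 and 1.91 CPM. The propeptidases Adamts2 and Adamts14 were 5.17-fold (4.20 to 6.41) and 8.62-fold higher (6.37 to 11.9). Pcolce was at 18.6, 122 and 15.2 CPM. In PCI34051+NEC against NEC 11 of 15 were lower and none was higher, and in PCI34051+NEC against control none of 12 passed 2-fold. Of the 11, Tll1, Tll2 and Loxl4 passed the minimum only through NEC.

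**Figure D5:**
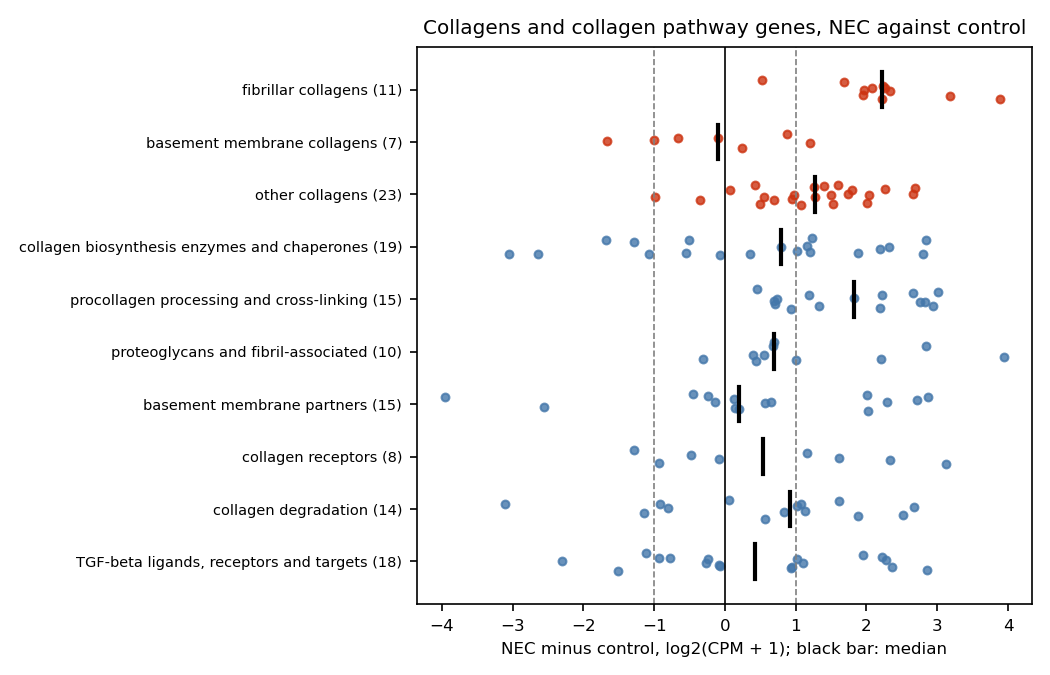
Difference in log2(CPM + 1), NEC minus control, for every measured gene of the 3 collagen classes and the 7 lists around them, with the number measured in brackets, medians as black bars and dashed lines at 2-fold. Of the 7 lists the processing and cross-linking list has the highest median, 1.83, and no member past the lower line, while 5 of the remaining lists have members past both lines.

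Of 10 measured proteoglycans and fibril-associated proteins 4 were higher in NEC and none was lower (median 0.69). Tnxb, a tenascin that binds fibrils, was at 23.3, 373 and 20.4 CPM, 16.0-fold higher in NEC (14.4 to 17.9). Fibronectin (Fn1) was at 42.6, 200.3 and 44.1 CPM, and Aspn, a small leucine-rich proteoglycan, at 8.12, 64.1 and 18.5 CPM, and Ogn was the fourth. Decorin (Dcn), which is also a marker of fibroblasts, was at 64.4, 105 and 82.9 CPM, within 2-fold throughout.

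Of 15 basement membrane partners 5 were higher in NEC and 2 lower, or 33.3% and 13.3%, beside 24.2% and 22.9% of all genes. The median was 0.19, and 0.02 without the trend with GC content and length. The laminin chains parted: Lama5 was at 65.7, 437 and 113 CPM, Lamb2 was 7.59-fold higher (6.74 to 8.57), and Lama3, a chain of epithelial laminin, was at 283, 17.3 and 57.5 CPM (16.4-fold lower in NEC, 14.2 to 19.1). Perlecan (Hspg2), the heparan sulphate proteoglycan of this network, was higher, at 62.9, 311 and 78.2 CPM. Nid2, a nidogen that links laminin to type IV collagen, was lower in NEC, at 62.8, 9.86 and 44.7 CPM. Lama1 and Lama2 were the remaining members that were higher. Between PCI34051+NEC and NEC, 4 were higher and 7 lower in the former. Of the 7, Lamc3 passed the minimum only through NEC.

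Of 8 measured collagen receptors 4 were higher in NEC and 1 was lower (median 0.54). The integrin chains Itga1, at 19.8, 103 and 24.8 CPM, and Itga10, at 0.755, 14.2 and 1.25 CPM, were higher, as were Ddr2 and Mrc2. Of these, Itga10 passed the minimum only through NEC. Ddr2, a receptor kinase for fibrillar collagen, was at 20.2, 46.5 and 15.2 CPM, whereas Ddr1, its epithelial relative, was at 133, 69.3 and 131 CPM. The member called lower was Lair1, an inhibitory receptor of immune cells, at 4.53, 1.28 and 1.31 CPM, and Lair1 was named after its values were seen. Without the trend with GC content and length the median of the receptors was 0.36. The calls of Lair1 (log2 fold -0.99) and Mrc2 (0.73) then ended, and Ddr1 came past the lower threshold (-1.41).

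Of 14 measured genes of collagen degradation 7 were higher in NEC and 2 lower (median 0.93). Of the 7, Mmp8 and Timp4 passed the minimum only through NEC. The membrane collagenase Mmp14 was at 41.5, 242 and 39.6 CPM, and the inhibitor Timp1 at 1.07, 12.2 and 2.17 CPM. The gelatinase Mmp9 was lower, at 28.1, 2.37 and 11.8 CPM (11.8-fold lower in NEC, 7.96 to 18.3), as was Mmp15. Macrophage markers summed to 469, 117 and 206 CPM, most of it Csf1r (406, 58.8 and 160.4 CPM). Of the 4, Csf1r and Cd68 were lower in NEC, Adgre1 was within 2-fold and C1qa was at 24.5, 45.3 and 20.8 CPM, and their part in the Mmp9 difference was not tested.

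TGF-beta signalling is the best known inducer of collagen genes, and of its 18 measured ligands, receptors and targets 7 were higher in NEC and 3 lower (median 0.43). Of the 18, 9 had a log2 fold above 0 and 9 below. Without the trend with GC content and length the median turned to -0.06, and the call of Ltbp4 ended (log2 fold 1.10, then -0.06). That median leaves out Ctgf, for which no GC content was held and whose log2 fold was 2.855. The target Ctgf was at 4.78, 40.8 and 9.26 CPM (8.54-fold higher, 6.68 to 11.0), and the ligand Tgfb3 was 5.45-fold higher (4.34 to 6.89). Skil, a repressor of the pathway, was lower, at 83.7, 16.1 and 80.3 CPM, as were Smad7, an inhibitor, and the receptor Tgfbr2. In PCI34051+NEC 5 were higher and 7 lower than in NEC, with a median of -0.48. Without that trend, and again without Ctgf, the median was 0.25.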

How the data were processed

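RNA-seq of mouse intestine was measured in 3 libraries, 1 per group. The authors deposited raw read counts per gene symbol in 1 table, with mm10 as the build per the submitters' processing notes. Which aligner, annotation, strand setting and filters they used was not given in the sources used here. Gene symbols were matched to GENCODE M21 (21926 of 21983, with all 44 collagens). Exons of Col9a3 and Col10a1 overlap another listed gene, as do those of Col4a1 and Col4a2, so reads there could be counted for either.

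TMM factors from edgeR 4.0.16 under R 4.3.3, over all genes and libraries, were 1.05, 1.03 and 0.923. Log2 folds used a pseudocount of 1 CPM. Genes at 1 CPM or more in either library were called at a 2-fold difference. The floor for a count of 0 is 3 counts, or 0.189 (control), 0.274 (NEC) and 0.197 CPM (PCI34051+NEC). No model with replicates could be fitted. The interval procedure was tested on simulated data.

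The text prints every collagen at 5 CPM or more in a library and up to 6 genes of each list, those with the largest NEC against control difference. Serpinh1, Lair1, P4hb, Ppib, Sec23a, Lama1, Smad7, Tgfbr2 and Ltbp4 fall outside this rule and were named after their values were seen. So were Tll1, Tll2, Loxl4, Lamc3, Mmp8, Timp4, P3h1, P3h4 and Creb3l1. The members and lists were chosen with earlier results of these data known. As alternatives, scaling used total counts, DESeq2 1.42.0 size factors, TMM without mitochondrial and the 50 most abundant genes or TMM over 2 libraries. The pseudocount was set to 0.25 or 4, the minimum to 5 CPM or none, and the threshold to 1.5-fold. Further ones were counting intervals beyond 2-fold, thinning to 10650638 counts and removal of the GC content and length trend (30 bins each). Scripts used Python 3.11.15 with scipy 1.17.1.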

Additional observations from a re-analysis of the deposited data

How the results depend on the processing

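No paired analysis was possible because each group has 1 library, and for the same reason no replicate could be left out. Depth limits what can be said of the 14 collagens below 5 CPM, whose intervals are wide. Alternatives for single genes were run only for collagens at 5 CPM or more in a library and already past 2-fold, so gained calls are not among them. Over their 45 differences at 2-fold under 8 alternatives each, none of 360 values reversed and 347 stayed beyond 2-fold. Of the 360, 309 stayed within counting error and 51 did not. Without the trend with GC content and length, Col4a2, Col5a3, Col9a2, Col12a1, Col16a1, Col23a1 and Col26a1 came inside 2-fold in 1 comparison or more, and with a pseudocount of 4 Col4a5, Col25a1 and Col26a1 did. Among collagens below 5 CPM, removal of that trend also ended calls of Col2a1, Col6a6 and Col17a1. Col2a1 moved to log2 folds of 0.99 in NEC against control and -0.13 in PCI34051+NEC against NEC. Col6a6 moved to 0.86 in NEC against control, and Col17a1 to -0.99 in PCI34051+NEC against NEC. Removal of the trend also brought Col15a1 past 2-fold, as lower in NEC against control (-1.01). Scaling to total counts moved the median of all genes to -0.14 in PCI34051+NEC against NEC and to -0.18 against control. The following numbers of genes past 2-fold in either direction moved by over 1.5 times. In PCI34051+NEC against control all collagens passed in 11 genes at a 1.5-fold threshold, 1 by counting intervals beyond 2-fold, 4 with a pseudocount of 0.25 and 5 with total counts. Other collagens there passed in 7, 1 and, with total counts, 4. Fibrillar collagens passed in 2 at 1.5-fold and 1 with a pseudocount of 0.25, and basement membrane collagens in 2 at 1.5-fold and 1 with total counts. At 1.5-fold the lists passed in 6 (TGF-beta), 5 (basement membrane partners), 6 (biosynthesis), 6 (degradation), 5 (proteoglycans) and 4 (processing). Proteoglycans passed in 0 by counting intervals, 2 with a pseudocount of 0.25 and 0 with 4, and receptors in 1 at a minimum of 5 CPM and 1 with a pseudocount of 4. In NEC against control basement membrane collagens passed in 5 at 1.5-fold, other collagens in 9 with a pseudocount of 4 and receptors in 3 by counting intervals. In PCI34051+NEC against NEC a pseudocount of 4 left 19 collagens, 1 of the basement membrane and 9 others. The collagen share became 0.192% (control), 0.880% (NEC) and 0.152% (PCI34051+NEC) without mitochondrial counts, and 0.238%, 0.977% and 0.194% also without the 50 most abundant genes.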

Other observations

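Other collagen genes lie beside each other within 200 kb. Col3a1 and Col5a2 lie tail to tail on chromosome 1, and their log2 folds in NEC against control were 1.97 and 2.26. Col6a2 and Col6a1 lie in the same direction on chromosome 10, with 2.26 and 2.69. Col6a4, Col6a5 and Col6a6 lie in a row on chromosome 9, with -0.35, 2.65 and 1.07. Col4a6 and Col4a5 lie head to head on chromosome X, with start sites 1309 bases apart, and only Col4a5 was measured. No value here says whether neighbours share control.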
